A study of Mus musculus with 2 samples.

Results

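The genes described here are 8 components of the Hedgehog pathway, taken by name from the 24421 gene symbols in the table of counts: Shh, Ptch1, Smo, Gli1, Gli2, Gli3, Hhip and Sufu. All 8 are in the table, and all had more than 3 counts in both libraries. The RNA came from whole-layer back skin of wild type C57BL6/J mice, with 1 library of skin stretched for 5 days by a device fixed to the back (33% strain in the labels, which the methods describe as a starting value raised daily) and 1 library of skin left unstretched until day 5. The study's methods describe 8-week-old female mice whose hair was in physiological telogen, the resting phase of the hair cycle, with the device-attached skin cut away, and they do not say how many mice gave each RNA. Without replicates no p-value can be given, and each comparison is between these 2 libraries and not between the conditions. The total count was 14152379 for the control library and 11648655 for the stretched library.

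Hedgehog ligands are secreted proteins that bind the receptor Patched. In the absence of ligand, Patched keeps the membrane protein Smoothened inactive, and GLI2 and GLI3 are cut into repressors with the help of SUFU. Ligand releases Smoothened, which gathers in the primary cilium, and full-length GLI proteins then switch on target genes. Ptch1, Hhip and Gli1 are themselves targets of the pathway, so that their RNA is widely used as a readout of its activity. In skin, Sonic hedgehog is made by the epithelium of the growing follicle and acts on the hair matrix and on the dermal papilla beneath it, and it is required for the follicle to grow down in anagen.

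On mm10, Shh lies on chromosome 5 from 28456815 to 28467256, Ptch1 on chromosome 13 from 63508328 to 63573598 and Smo on chromosome 6 from 29735503 to 29761365. Gli1 lies on chromosome 10 from 127329882 to 127341974, Gli2 on chromosome 1 from 118834132 to 119053619 and Gli3 on chromosome 13 from 15463235 to 15730026. Hhip lies on chromosome 8 from 79965851 to 80058006 and Sufu on chromosome 19 from 46396896 to 46488804. Promoter windows from RefSeq (GRCm38.p6, the build that mm10 names) were matched by symbol for Ptch1, Smo, Gli2, Gli3, Hhip and Sufu. The 250 bases before the start site that RefSeq gives are shown for Ptch1 and Hhip, the pathway targets with a window, and for Smo, the gene with the smallest fold change. They are Ptch1 chr13:63565736-63565985 (minus strand), Hhip chr8:80058009-80058258 (minus strand) and Smo chr6:29735247-29735496 (plus strand), and the start site of the Ptch1 window lies 7863 bases inside the span given above, downstream of the first start site of the gene. Capitals mark the GC box GGGCGG or its reverse complement CCGCCC.
Ptch1: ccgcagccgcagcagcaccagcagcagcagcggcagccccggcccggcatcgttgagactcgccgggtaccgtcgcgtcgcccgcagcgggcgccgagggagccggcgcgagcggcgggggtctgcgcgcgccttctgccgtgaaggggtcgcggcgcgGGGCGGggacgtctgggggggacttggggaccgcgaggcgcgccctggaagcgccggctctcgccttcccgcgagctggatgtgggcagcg
Hhip: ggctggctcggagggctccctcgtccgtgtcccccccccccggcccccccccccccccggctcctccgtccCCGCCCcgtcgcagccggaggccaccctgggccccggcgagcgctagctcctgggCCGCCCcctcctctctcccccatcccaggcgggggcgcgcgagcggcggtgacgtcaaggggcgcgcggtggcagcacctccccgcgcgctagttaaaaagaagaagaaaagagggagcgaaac
Smo: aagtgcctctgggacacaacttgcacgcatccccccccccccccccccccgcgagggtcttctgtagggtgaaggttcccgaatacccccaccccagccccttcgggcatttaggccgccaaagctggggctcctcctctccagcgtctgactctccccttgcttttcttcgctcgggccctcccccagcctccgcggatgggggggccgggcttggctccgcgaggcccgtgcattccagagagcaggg
The GC box was found 1 time in the Ptch1 window, 2 times in the Hhip window and 0 times in the Smo window. Over the 6 windows, 5 held a GC box, against 32.7% of 32851 windows of the same length. The GC content of the 6 windows was 54.0% to 78.4%, against a median of 52.4% over all windows (upper quartile 61.2%), and the share was not compared at equal GC content. The GLI motif GACCACCCA, searched on both strands, was in 0 of the 6 windows and in 0.225% of all windows, which says only that these letters are not in these windows.

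All 8 genes were lower in stretched skin than in control skin, and for all 8 the 95% counting interval of the fold change lay wholly below 0 on the log2 scale. The level of each gene is given in CPM (the count scaled to the total count of its library), and its interval is an exact Poisson interval. The fold change is the ratio of CPM, stretched over control, with an exact Clopper-Pearson interval, and every interval covers counting error only. Of the 16255 genes with more than 3 counts in at least 1 library, 61.5% were lower in stretched skin and 33.5% had an interval wholly below 0. On the log2 scale the 8 genes had a median of -0.91, against -0.12 over all genes tested, and the interval lay below that median for 7 of the 8. In bulk skin, fewer cells that express a gene and less of its RNA per cell cannot be told apart.

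**Figure D1:**
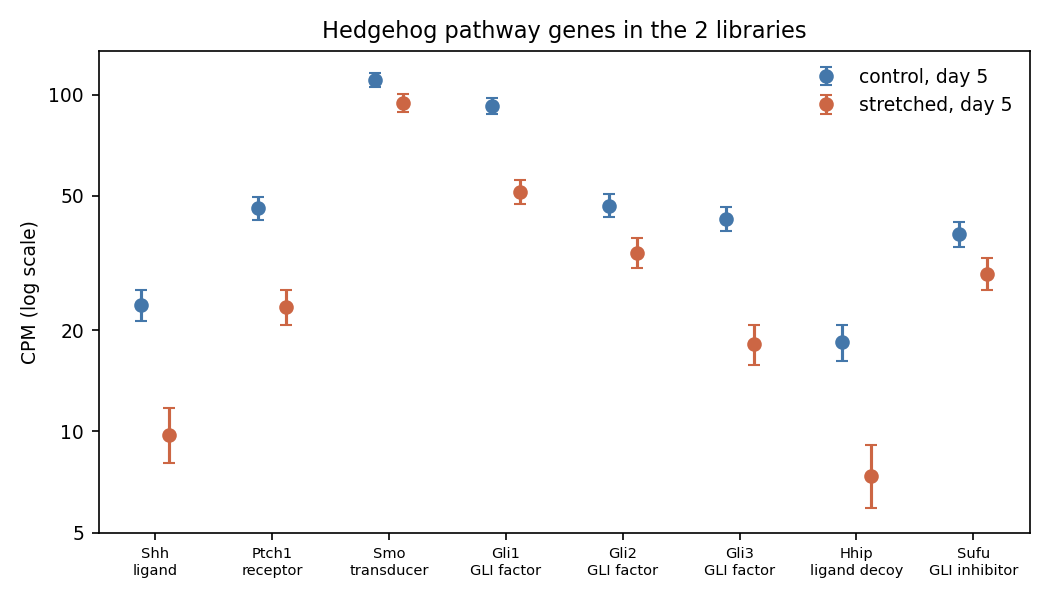
Level of each Hedgehog gene in CPM (log scale) in control skin (blue) and stretched skin (orange), 1 library each, with exact 95% Poisson intervals as bars. Every gene is lower in stretched skin, and the bars of the 2 libraries overlap for none of the 8. Smo, at 111 and 94.3 CPM, is the closest pair.

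Shh, which encodes the ligand Sonic hedgehog, had 335 counts in the control library and 114 in the stretched one. Its level was 23.7 CPM (21.2 to 26.3) in the control library and 9.79 CPM (8.07 to 11.8) in the stretched one. The log2 fold change was -1.27 (-1.59 to -0.96), so that stretched skin held 41.3% of the control level. Only 3.43% of all genes tested had a lower fold change than Shh. Shh shares 446 exon bases, 15.7% of its exon length, with the antisense gene 9530036O11Rik, which had 5 and 4 counts. Shh also shares 361 exon bases (12.7%) with Gm26894, on the opposite strand too, which is not in the table of counts under that name. Reads from overlapping genes on opposite strands cannot be told apart where the counting did not use strand, which is not stated here. The same limit holds for Gli1, which shares 62 exon bases (1.24%) with Arhgap9 (169 and 228 counts) and 265 (5.31%) with Gm47200. Gli3 shares 1.96% with Gm6556 and Hhip 1.93% with Gm27820, all on the opposite strand. Without Shh the median of the other 7 genes was -0.85.

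The other ligands were scarce. Dhh, the ligand made by Schwann cells of peripheral nerve, had 42 counts in the control library and 59 in the stretched one (log2 fold change 0.77, 0.18 to 1.38). Ihh had 2 counts in the control library and 3 in the stretched one, at or under the floor of 3 counts in both libraries. Shh and Dhh therefore differed in direction, and the difference of their log2 fold changes was -2.04 (-2.73 to -1.36). Differences between genes are log2 odds ratios of their counts with exact conditional intervals, in which the scaling of the libraries cancels. These intervals were not adjusted for the number of pairs compared. Shh made up 92.0% of the summed FPKM (CPM divided by the exon length in kilobases) of the 3 ligands in the control library and 73.6% in the stretched one.

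Ptch1, the ligand receptor and a target of the pathway, had 651 counts in the control library and 272 in the stretched one. These are 46.0 CPM (42.5 to 49.7) and 23.4 CPM (20.7 to 26.3), and the log2 fold change was -0.98 (-1.19 to -0.77). Ptch1 thus lay just short of a 2-fold fall, at 50.8% of the control level.

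Smo, which encodes Smoothened, showed the smallest difference of the 8 genes. It had 1566 counts in the control library and 1099 in the stretched one, or 111 CPM (105 to 116) and 94.3 CPM (88.8 to 100.1). The log2 fold change was -0.23 (-0.34 to -0.12), an interval that reached the median of all genes tested. Stretched skin held 85.3% of the control level of Smo.

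Of the GLI transcription factors, Gli3 was lowered most and Gli2 least. Gli1, an activator and a direct target, had 1311 counts in the control library and 598 in the stretched one, or 92.6 CPM (87.7 to 97.8) and 51.3 CPM (47.3 to 55.6). Its log2 fold change was -0.85 (-0.99 to -0.71). Gli2, the main activator downstream of Smoothened, had 663 and 395 counts, or 46.8 CPM (43.3 to 50.6) and 33.9 CPM (30.6 to 37.4). Its log2 fold change was -0.47 (-0.65 to -0.28). Gli3, which acts mainly as a repressor, had 604 and 211 counts, or 42.7 CPM (39.3 to 46.2) and 18.1 CPM (15.8 to 20.7). Its log2 fold change was -1.24 (-1.47 to -1.01), the only one of the 8 whose interval lay wholly past a 2-fold fall, and narrowly so. Under the 4 other scalings its upper end lay between -0.94 and -0.90, so that none of the 8 intervals was then wholly past 2-fold. Within the family the 3 fold changes were distinct beyond counting error. Gli3 differed from Gli2 by -0.77 (-1.07 to -0.47) and from Gli1 by -0.38 (-0.66 to -0.11), and Gli1 differed from Gli2 by -0.39 (-0.62 to -0.15). The share of Gli3 in the summed FPKM of the 3 genes was 14.9% in the control library and 11.0% in the stretched one, while that of Gli2 was 22.9% and 28.9% and that of Gli1 was 62.2% and 60.1%.

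Hhip, a membrane protein that binds and sequesters the ligand and is induced by the pathway, had the largest difference. It had 260 counts in the control library and 86 in the stretched one, or 18.4 CPM (16.2 to 20.7) and 7.38 CPM (5.91 to 9.12). Its log2 fold change was -1.32 (-1.68 to -0.96), which leaves 40.2% of the control level. Sufu, which holds GLI proteins in the cytoplasm, had 544 and 342 counts, or 38.4 CPM (35.3 to 41.8) and 29.4 CPM (26.3 to 32.6). Its log2 fold change was -0.39 (-0.59 to -0.19).

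**Figure D2:**
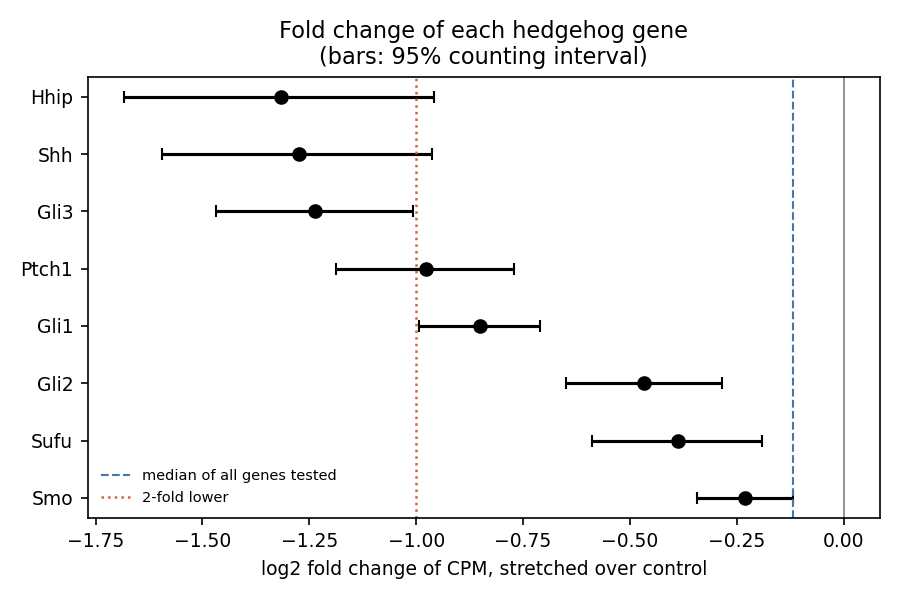
Log2 fold change of CPM, stretched over control, of each Hedgehog gene (points) with its exact 95% counting interval (bars). The genes are ordered from Hhip at -1.32 to Smo at -0.23, the dashed line is the median of all genes tested (-0.12), and the dotted line is a 2-fold fall.

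The order of fold changes ran from Hhip over Shh, Gli3, Ptch1, Gli1, Gli2 and Sufu to Smo. Among the 7 pairs of neighbours in this order, only Gli1 and Gli2 differed beyond counting error. The difference between Hhip and Shh was -0.04 (-0.53 to 0.44), that between Shh and Gli3 was -0.04 (-0.43 to 0.35), and that between Gli3 and Ptch1 was -0.26 (-0.57 to 0.05). Against Smo, 6 of the other 7 genes were lower beyond counting error, from -1.08 for Hhip (-1.47 to -0.71) to -0.24 for Gli2 (-0.45 to -0.02). The exception was Sufu, which differed from Smo by -0.16 (-0.39 to 0.07). The receptor target Ptch1 differed from Smo by -0.75 (-0.99 to -0.51) and Gli1 by -0.62 (-0.80 to -0.44). The difference between Shh and Gli1 was -0.42 (-0.77 to -0.08).

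Levels were compared between genes per length, in FPKM. The length was the union of exons of each gene. The order depends on it and was not tried with other lengths, and the counting intervals do not cover that choice. In control skin the order was Smo (19.7), Gli1 (18.5), Shh (8.31), Gli2 (6.82), Sufu (5.00), Gli3 (4.45), Ptch1 (3.24) and Hhip (2.02). The counting intervals of Smo and Gli1, and of Sufu and Gli3, overlapped. In stretched skin the order was Smo (16.8), Gli1 (10.3), Gli2 (4.94), Sufu (3.82), Shh (3.44), Gli3 (1.89), Ptch1 (1.65) and Hhip (0.81). There the intervals of Sufu and Shh, and of Gli3 and Ptch1, overlapped. Shh thus moved from rank 3 to rank 5 of the 8, and Smo and Gli1, close to each other in control skin, lay apart in stretched skin.

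Genes past a 2-fold difference were counted by 2 rules. By CPM alone, Hhip, Shh and Gli3 were at least 2-fold lower, 3 of 8, and 0 were higher, where 5.47% of all genes tested were lower and 6.32% higher by this rule. The rule of the study's methods asks that the product of the FPKM values (the expression value, EV, here with 1 added to each FPKM) exceed 10 and that the fold be at least 2 or at most 0.5. The study took its FPKM values from Cufflinks, while those used here are CPM over exon length, so that the calls are not the study's own. Of the 8 genes 7 passed the EV filter, and 1 of them, Shh, was called lower, where 2.43% of the 10908 genes that passed were called lower and 2.61% higher. Shh met it narrowly, at a log2 fold of -1.07 on FPKM with 1 added, and it was not called with TMM scaling (0 of 8). The added 1 is a choice made here, since the methods do not state one. Without it Shh was called on total counts and with TMM scaling alike (1 of 8 each). With 1 added, Gli3 reached -0.92 and Ptch1 -0.68 on the log2 scale, while Hhip had an EV of 5.48 and was filtered out.

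**Figure D3:**
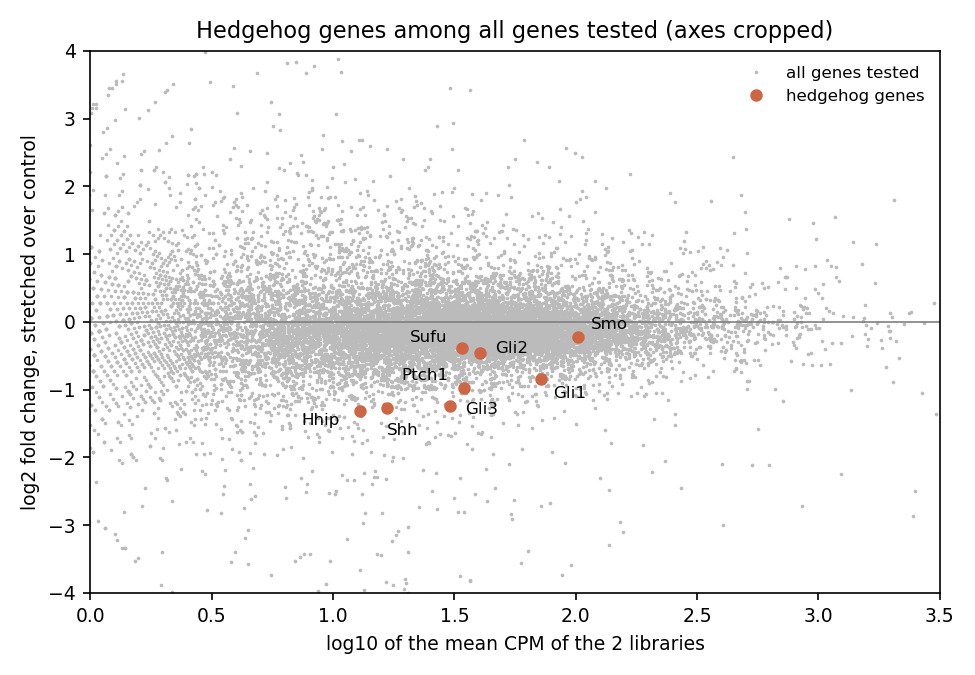
Log2 fold change of CPM, stretched over control, against the log10 of the mean CPM of the 2 libraries for the genes tested (grey) and the 8 Hedgehog genes (orange, named). The axes are cropped and leave out 1859 of the 16255 genes, and all 8 Hedgehog genes lie below 0, with Hhip, Shh and Gli3 below -1.

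The other genes of the pathway did not share a direction. Over the 49 genes of 5 further lists with more than 3 counts in at least 1 library, the median log2 fold change was -0.18, with 23 intervals wholly below 0 (46.9%, against 33.5% of all genes tested) and 8 wholly above (16.3%, against 18.1%). Of the 11 genes of ligand release and reception, 3 intervals lay below 0 and 3 above, around a median of 0.24. Scube1 and Scube3, of a family of secreted proteins of which Scube2 helps to free the ligand from cells, were at 37.3% and 42.5% of the control level. Scube1 had 179 counts in the control library and 55 in the stretched one, and Scube3 had 183 and 64. Scube2 itself was not lower, with 94 and 99 counts (log2 fold change 0.36, -0.07 to 0.78), an interval that included 0. Gas1, a coreceptor for the ligand, was higher, with 1404 and 1729 counts (log2 fold change 0.58, 0.48 to 0.68). The coreceptor Cdon had 924 and 911 counts (0.26, 0.13 to 0.39), and the third coreceptor, Boc, had 768 and 613 (-0.04, -0.20 to 0.11). Scube2, Cdon, Boc, Disp2, Kif7, Gpr161, Pdgfra, Cdk1, Plk1 and Rrm2 were chosen for naming after their values were seen. The count of Disp2, with 3 and 9 counts, is too low for a direction.

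Transduction at the primary cilium was represented by 14 genes with a median log2 fold change of -0.17, near that of all genes. None was past 2-fold, 5 intervals lay below 0 and 9 included 0. The lowest was Kif7, a ciliary kinesin that regulates GLI proteins, with 275 counts in the control library and 132 in the stretched one (-0.78, -1.09 to -0.47). Tulp3 had the most counts of the list, 673 and 383 (-0.53, -0.72 to -0.35), and it brings Gpr161, a receptor that restrains the pathway, into the cilium. Gpr161 had 73 and 37 counts (-0.70, -1.31 to -0.11). The 11 kinases and ligases that act on GLI proteins had a median of -0.12, the same as all genes at this precision. Of these 6 intervals lay below 0, 2 above and 3 included 0, and Csnk1a1, the kinase gene with the most counts, was at -0.33 (-0.41 to -0.26).

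Among 12 further genes reported as GLI targets, 9 intervals lay below 0 and 2 above, and the median was -0.69. Foxe1, a forkhead factor of the hair follicle, had 226 counts in the control library and 63 in the stretched one (-1.56, -1.99 to -1.15). Mycn, a driver of cell division, had 560 and 166 counts (-1.47, -1.73 to -1.22). Ccnd2, a G1 cyclin, had the most counts of the list, 5378 and 2492 (-0.83, -0.90 to -0.76). Spp1, which encodes osteopontin and is strongly made by macrophages, went the other way, from 50 counts to 265 (2.69, 2.25 to 3.15).

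Markers of the cells that make or receive the ligand differed between the libraries too. The libraries held the epidermal and dermal markers of skin at high counts, such as Krt5 with 61216 and 50601 counts and Col3a1 with 199708 and 319618. All 12 genes of the hair matrix and its products were at least 2-fold lower in stretched skin, with a median of -2.35, and their summed level was 13398 CPM in the control library and 2285 CPM in the stretched one. Krt71, an inner root sheath keratin, had 60382 counts in control skin, where the methods place the hair in telogen, and 8796 in stretched skin. None of the 12 was at 0 in either library. They are genes of the growing follicle, so the methods alone do not make the control library one of resting hair. The hair stage of the sampled skin was not tested. Shh was lowered less than 10 of the 12 genes beyond counting error, Hhip less than 10, Gli3 less than 11, and each of the other 5 Hedgehog genes less than all 12. The part of hair matrix content in the Hedgehog differences was not tested.

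The 10 genes of dividing cells were all lower, with a median of -1.04, and their summed level was 689 CPM in the control library and 339 CPM in the stretched one. Mki67 had 2847 and 1126 counts. Shh differed from Mki67 by -0.22 with an interval that included 0 (-0.55 to 0.11), and its fold change was lower than those of 3 of the 10 genes and not separated from the other 7. The 3 were Cdk1, Plk1 and Rrm2, and the intervals of the difference ended at -0.0007, -0.009 and -0.40, the first of them barely below 0. Smo was lowered less than all 10. Of the 12 dermal papilla genes, 10 were lower, 6 of them with an interval below 0, and 1 interval lay above. Their median was -0.56, and their summed level was 155 CPM and 98.1 CPM. Wif1, a Wnt inhibitor of the papilla, had 852 and 224 counts (-1.65, -1.87 to -1.43). Shh, Gli3 and Hhip each had a lower fold change than 6 of the 12 genes beyond counting error, and Ptch1 and Gli1 than 3, while Gli3, Ptch1 and Gli1 each had a higher one than 1 gene. Smo and Sufu had a higher fold change than 3 of the 12 and a lower one than 2, and Gli2 had 2 on either side. The part of either cell type in the Hedgehog differences was not tested.

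The remaining lists went in both directions. The 8 bulge genes, of the stem cell niche, had a median of -0.33 with 5 intervals below 0 and 2 above, and Krt15 among them had 15280 and 9127 counts. Their summed level was 1708 and 1394 CPM. The 6 basal keratinocyte genes had a median of 0.11 (summed 8537 and 9222 CPM), and the 9 Schwann cell genes had a median of 0.10 (summed 496 and 533 CPM). All 7 fibroblast genes were higher, with a median of 0.25 (summed 41296 and 77480 CPM). The difference between Gli1 and Pdgfra, a fibroblast receptor of this list, was -1.03 on the log2 scale (-1.20 to -0.86). All 8 macrophage genes were higher, with a median of 1.34 (summed 852 and 2066 CPM), and Lyz2 had 3975 and 8471 counts. The 5 adipocyte genes were all lower, with a median of -0.78 (summed 1189 and 753 CPM), and Fabp4 had 9146 and 5115 counts. The 9 skeletal muscle genes went both ways, with a median of -0.25 (summed 27508 and 20348 CPM), and Acta1 had 127849 and 100096 counts. No marker of these lists was at 0 in both libraries, and the part of these cells in the Hedgehog differences was not tested.

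**Figure D4:**
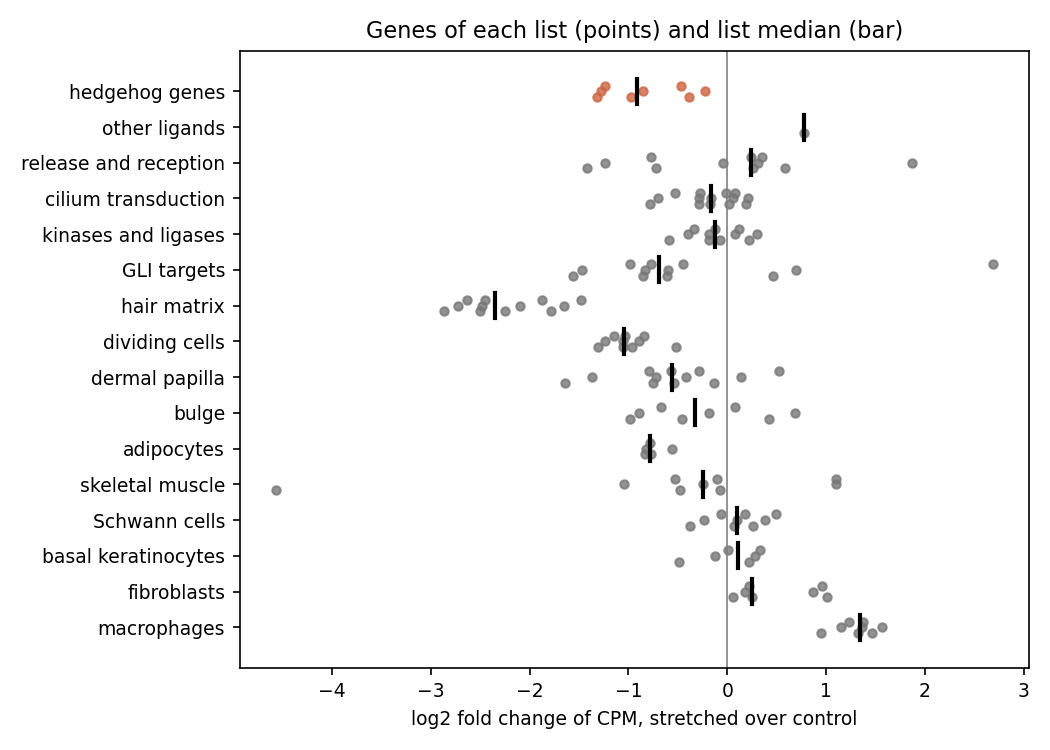
Log2 fold change of CPM, stretched over control, of each gene with more than 3 counts in at least 1 library (points), in the 8 Hedgehog genes (orange) and the other lists (grey), with the median of each list as a black bar. The Hedgehog median of -0.91 lies between those of dividing cells (-1.04) and adipocytes (-0.78), and those of the hair matrix (-2.35) and the dermal papilla (-0.56) lie farther off.

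Genes with the most similar levels to Shh and Gli1 were found by the distance between their log2 FPKM values, over only 2 libraries, among 14662 other genes. Closest to Shh were Kif11 (8.42 FPKM in the control library and 3.58 in the stretched one), Cbs (8.59 and 3.33), Wnt5a (8.38 and 3.27), Nusap1 (7.80 and 3.53) and Myoc (9.13 and 3.48). Closest to Gli1 were Cdkn2c (18.5 and 10.4), Wdr47 (18.2 and 10.3), Casz1 (17.8 and 10.1), Ero1l (17.8 and 10.1) and Neo1 (17.7 and 10.2). With 2 points per gene, many genes match a level and a fold change.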

How the data were processed

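The authors sequenced RNA of whole-layer skin with single-end reads of 76 bases, filtered them with the FASTX-Toolkit and mapped them to mm10 with TopHat2. The authors deposited raw counts per gene symbol. The counting program, its annotation and its use of strand are not given in the sources used here.

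CPM was computed with library totals, and FPKM with the union of exons in GENCODE M21, matched by name (23376 symbols) or synonym (670), with 375 unmatched. Counts of 3 or fewer (0.212 CPM in control skin, 0.258 CPM in stretched skin) were set to 3, and genes at 3 or fewer in both libraries got no fold change. The members and lists were chosen with earlier results of these data known. Besides the members, the text names the genes past 2-fold and the gene with the most counts of each pathway list, the gene with the most counts of each marker list, and the 5 genes closest to Shh and to Gli1, except that some of these are not reported here.

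Of the 76-base stretches of its transcripts, Shh shared 21.0% with other genes on either strand, Gli1 3.71%, Hhip 1.10%, Gli3 1.04% and Smo 0.74%, and Ptch1, Gli2 and Sufu shared 0. On simulated data with 200 genes changed 4-fold, 200 were called in the right direction by CPM, and 95.7% of 16150 intervals held the true value. The alternatives were median of ratios from DESeq2 1.42.0, TMM from edgeR 4.0.16, the upper quartile, and totals that leave out the top 50 genes, besides other filters and pseudocounts. R 4.3.3 and Python 3.11.15 were used, with scipy 1.17.1, numpy 2.4.6, matplotlib 3.10.9 and pandas 2.3.3.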

Additional observations from a re-analysis of the deposited data

How the results depend on the processing

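The scaling alternatives raise every log2 fold change by 0.06 to 0.11. Under all 4 of them the 8 Hedgehog genes kept their direction and had counting intervals wholly below 0, and the 32 values stayed within the intervals of the main values. The median of the 8 genes ranged from -0.91 with a minimum of 20 counts to -0.80 with median of ratios, and it was -0.85 without Shh, an alternative chosen after seeing the data. The number called lower by CPM was 3 under all 4 scalings. By the study's rule, which called 1, the count was 0 under TMM, upper quartile and median of ratios scaling and with EV above 100, and 3 with CPM in place of FPKM, which lifts genes with long transcripts past the filter and makes the added 1 weigh less. Without the added 1 the count was 1, also with TMM scaling, an alternative chosen after seeing the data. The shift is of the size of the smaller list medians, and with median of ratios that of the cilium genes was -0.058 and that of the kinases and ligases -0.011. A list median was counted as moved where it left the span between the medians of its genes' lower and upper interval bounds, which is narrower for lists with many counts. By that measure 1 of 37 values of pathway list medians moved, that of the kinases and ligases just named, and 22 of 60 values of marker list medians, and none of the list medians changed sign. No paired analysis was possible because each condition has a lone library, which also left none to omit. Depth limits the genes with few counts most, as for Ihh, Dhh and Disp2.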
